A study of Mus musculus with 6 samples.

Results

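The comparison described here is between RNA captured by an antibody to N6-methyladenosine (m6A) on beads and RNA captured by control IgG on beads, in 2 anti-m6A and 2 IgG libraries of 6 in all. The RNA came from bone marrow mesenchymal stromal cells of C57BL/6 mice on postnatal day 2, genotype Cxcl12-dsred/+. In these mice the red fluorescent protein DsRed marks cells that express the chemokine gene Cxcl12, and DsRed-positive cells lacking the surface markers CD45, Ter119 and CD31 were sorted. All 3 groups (Input, IgG and anti-m6A) share this genotype, strain, age and sort, and no treated or mutant group enters the comparison. The labels do not say whether the 2 libraries of a group came from separate animals, sorts or pull-downs. The p-values below therefore reflect only how far libraries of a group differ, and that spread may be technical.

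Of 27179 genes in the count table, 1899 (6.99%) had 10 or more counts in all 4 pull-down libraries and are called shared genes here; for these a fold exists. Another 23803 genes (87.6%) had 0 counts in both IgG libraries, so that only a lower bound of the fold exists, and the remaining 1477 had a count in at least 1 IgG library but fewer than 10 in at least 1 of the 4. The shared genes took 95.1% and 95.8% of the counts of the IgG libraries, against 58.6% and 59.4% in anti-m6A. At the edge of the definition, Rala had 30 and 10 counts with IgG against 4679 and 4334 with anti-m6A, which put it just inside, among 27 genes with a lowest count of 10. Vcam1, with 64 and 9 counts with IgG against 4739 and 3665 with anti-m6A, was just outside, among 22 genes with a lowest count of 9.

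N6-methyladenosine is placed on nuclear mRNA by a writer complex built on METTL3 and METTL14, removed by the demethylases FTO and ALKBH5, and read by YTH-domain and other proteins that affect splicing, export, translation and decay. It is found mostly within the consensus that the pentamer GGACT represents, and is known to be dense near stop codons and in long internal exons. In MeRIP-seq an antibody to the modified base enriches transcripts that carry it, and IgG beads show how much RNA the beads hold without that antibody. The labels state no fragmentation step and counts are per gene, so a value speaks for a transcript as a whole and places no site on it.

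To show the pentamer in its context, sequences from both ends of the comparison follow; most transcripts hold it, and Cavin3, the fifth largest increase, does not. For the 4 largest increases and 4 of the 5 largest decreases described below, the GGACT of the coding part nearest the stop codon, among those with a 30-base window inside 1 exon, is printed from the GENCODE M21 transcript on GRCm38, 5′ to 3′ on the transcript strand, with the pentamer in capitals. These are matches of letters and not measured methylation sites. In Chmp2a the pentamer's last base is the first base of the stop codon.
Tmem223 (chr19:8771141-8771170, plus strand): tttgccatccttGGACTgttttgtgcgggt
Rala (chr13:17893125-17893154, minus strand): gatggagtccttcgcagctaccgcGGACTt
Chmp2a (chr7:13032076-13032105, minus strand): agagaggctcaagaaccttcgcagGGACTg
Dynll1 (chr5:115300571-115300600, minus strand): agagatgcaacaGGACTcggtggagtgcgc
Mup20 (chr4:62054002-62054031, minus strand): ctgctgtgtttgGGACTgaccctagtctgt
C1rl (chr6:124493983-124494012, plus strand): gctgaccttccaGGACTttgatctggagcc
Ctse (chr1:131674811-131674840, plus strand): agtggctttcaaGGACTtgacattccacct
Fbp1 (chr13:62869016-62869045, minus strand): gggttatgccaaGGACTttgaccctgccat

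GGACT was searched on the transcript strand of 1 transcript per gene. It was held by 76.3% of the shared genes higher in anti-m6A, 90.7% of those lower, 84.3% of all shared genes and 87.2% of the 21572 transcripts searched. Per kilobase the median was 0.956 in the higher genes, 1.02 in the lower genes, 0.994 in all shared genes and 1.02 over all transcripts. The count of this pentamer per kilobase therefore did not order the shared genes by their change: across 1736 shared genes Spearman's rho between the log2 change and GGACT per kilobase was -0.04, a description across genes, which are not independent replicates.

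The 6 libraries held 1278735 to 9493391 counts, with the IgG libraries the shallowest at 2487148 and 1278735 and the anti-m6A libraries at 6102070 and 5133237. Values below are counts, or CPM (counts scaled to the library size, which was adjusted by TMM, the trimmed mean of M-values of edgeR). On a log2 scale over shared genes, replicates correlated at 0.950 in IgG, 0.988 in anti-m6A and 0.859 in Input. Shared genes have a minimum count in the pull-downs but not in Input, where 49 were at 0 in both libraries and 180 under 10 CPM. The Input value is therefore not on the same footing as the others. Of the 18 stromal identity genes checked, 4 were shared and 12 were at 0 in IgG with counts in both anti-m6A libraries. The other 2 were among the remaining genes and were called higher in anti-m6A, as were 52% of that class tested. The list held 0.270% and 0.263% of Input counts, 0.145% and 0.142% of anti-m6A counts and 0.0153% and 0.0086% of IgG counts. All 12 endothelial markers were at 0 in both IgG libraries, as were 87.6% of the whole table. The list's median Input level was 8.36 CPM, and 83.8% of genes between 1 and 10 CPM were at 0 in IgG. Some hepatocyte, erythroid and neutrophil markers had IgG counts and are given below, while 11 of 40, 5 of 10 and 11 of 15 were at 0 there. In bulk libraries, fewer cells of a type and less RNA per cell cannot be told apart.

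Among the 1899 shared genes, 452 were called higher with the m6A antibody (23.8% of shared genes) and 732 lower (38.5%) in the quasi-likelihood test of edgeR (adjusted p under 0.05), and 715 were not called. Over all 11281 genes tested the test called 8249 higher (73.1%) and 938 lower (8.31%). Among the shared genes decreases therefore outnumbered increases. The count minimum in the shallower IgG libraries leaves out genes low in IgG, so this balance also depends on how the class was formed. The opposite balance of the whole table likewise follows from how the classes were formed and is not a separate result. Of its higher calls, 7224 were genes at 0 in both IgG libraries, a class that can only be higher in anti-m6A. The median log2 change of shared genes was -0.44, the middle 50% of genes lay between -2.12 and 0.81, and the extremes were -8.19 and 7.01. Of the lower genes 460 had a log2 change of -2 or less, and of the higher genes 179 had one of 2 or more. In 678 shared genes both anti-m6A CPM values lay above both IgG values, in 984 both lay below, and in 237 they overlapped; every called gene was among those that did not overlap.

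The split between higher and lower depended on how libraries were scaled. With library totals alone 321 shared genes were higher and 924 lower, a shift of -0.52 in the median log2 change, and with only shared genes in the fit 588 were higher and 634 lower, a shift of 0.34. Of the calls, the share that was higher went from 38.2% to 25.8% and 48.1%. Changes are therefore read below relative to the median of all shared genes. Counts of calls in a gene list in the main fit are likewise to be read beside the 23.8% higher and 38.5% lower of all shared genes. Counts from an alternative fit belong beside the numbers of that fit, such as the 321 higher and 924 lower with library totals alone. Without anti-m6A library 1 the test called 296 shared genes higher, and without library 2 it called 284.

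**Figure D1:**
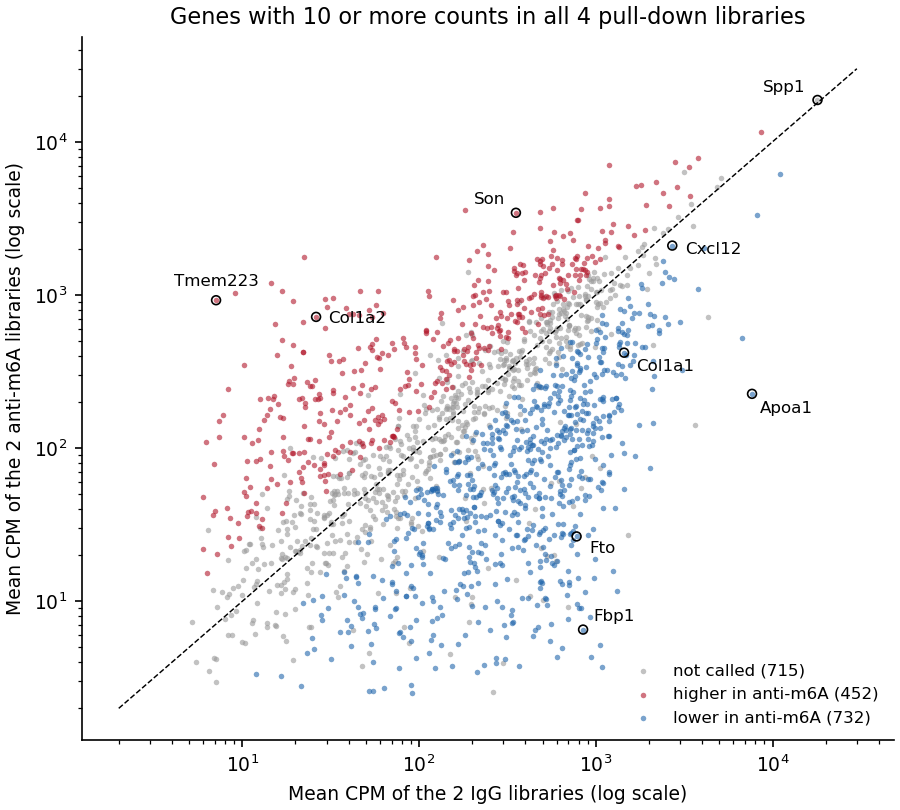
Each point is 1 of the 1899 shared genes, with the mean CPM of the 2 IgG libraries on the x axis and of the 2 anti-m6A libraries on the y axis, both on log scales; red points were called higher (452), blue lower (732) and grey not called (715), and the dashed line marks equal CPM. The called genes spread on both sides of the line, with Tmem223 and Col1a2 far above it and Fbp1, Fto and Apoa1 far below.

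The 10 largest increases among shared genes were Tmem223, a mitochondrial membrane protein, Rala, a small GTPase of vesicle trafficking, Chmp2a, a subunit of the ESCRT-III membrane-remodelling complex, Dynll1, a dynein light chain, Cavin3, a caveolar coat protein, 0610010K14Rik, Psmb4, a proteasome subunit, Lrrc8a, a subunit of the volume-regulated anion channel, Ssr4, a subunit of the translocon-associated complex, and Pnkd. Tmem223 had 20 and 10 counts with IgG against 4156 and 3913 with anti-m6A, while its Input libraries held 1714 and 3077. Chmp2a had 57 and 11 counts with IgG against 5485 and 5004 with anti-m6A. Dynll1 had 72 and 26 counts with IgG against 8035 and 7374 with anti-m6A. Each was thus low in both IgG libraries and high in both anti-m6A libraries. The absence of overlap was a condition of their choice.

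As CPM, Tmem223 was 7.11 ± 0.885 with IgG and 924 ± 88.0 with anti-m6A (SD, n = 2), a log2 change of 7.01 with SE 0.34 and an edgeR adjusted p of 0.000548. Rala reached 1032 ± 86.4 CPM in anti-m6A against 9.04 ± 3.62 in IgG (SD, n = 2), a log2 change of 6.80. The other 8 had log2 changes from 4.89 in Pnkd to 6.32 in Chmp2a and edgeR adjusted p-values from 0.000548 to 0.0038. Lrrc8a was the least even of them, with 2353 and 836 counts in anti-m6A against 18 and 21 in IgG, and its Input libraries were as uneven at 2007 and 728. None of these 10 lost its call or its direction in any alternative run.

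The 10 largest decreases were Mup20, a major urinary protein made mostly by liver, C1rl, a complement C1r-like protease, Ctse (cathepsin E), Cdo1, the enzyme of cysteine oxidation, Fbp1, the gluconeogenic fructose bisphosphatase, the transcript 2610027K06Rik, Grk2, a kinase of activated G-protein-coupled receptors, Serpina1d, an alpha-1-antitrypsin, Mapkapk5, a protein kinase, and the long non-coding RNA 2410018L13Rik. Ctse had 2779 and 1620 counts with IgG against 22 and 23 with anti-m6A, with 17 and 13 in Input. Fbp1 had 2443 and 1158 in IgG, 29 and 28 in anti-m6A and 0 in both Input libraries. Grk2 had 2492 and 1390 in IgG, 38 and 31 in anti-m6A and 160 and 118 in Input. These 3 transcripts were high in both IgG libraries and low in Input as well as in anti-m6A.

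Ctse stood at 1062 ± 17.3 CPM with IgG and 5.18 ± 0.873 with anti-m6A (SD, n = 2), a log2 change of -7.68 with SE 0.35 and an edgeR adjusted p of 0.000548. Mup20 had the lowest value at -8.19, but its edgeR adjusted p of 0.0389 rose to 0.0928 without IgG library 1, 0.0926 without IgG library 2 and 0.0637 without anti-m6A library 1. Cdo1, at -7.11, likewise went from 0.0291 to 0.0797 and 0.0755 without IgG library 1 or 2. Both had 0 counts in Input library 1 and 1540 (Mup20) and 309 (Cdo1) in Input library 2. The other 8 kept their calls in every alternative, with log2 changes from -7.76 in C1rl to -6.60 in 2410018L13Rik. Mup20 and Serpina1d belong to families of near-identical copies, so the assignment of their reads to 1 copy is uncertain.

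**Figure D2:**
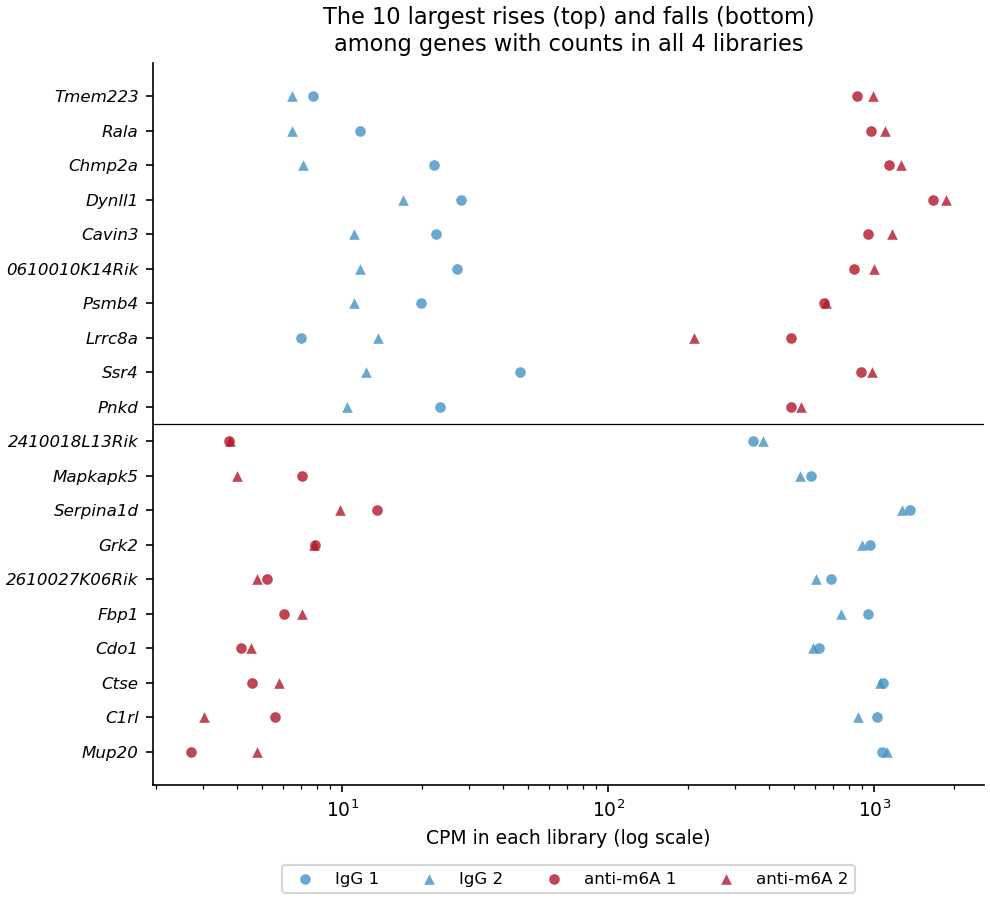
CPM in each of the 4 pull-down libraries on a log scale (blue IgG, red anti-m6A; circles library 1, triangles library 2) for the 10 largest increases (top) and the 10 largest decreases (bottom) among shared genes. In all 20 genes both libraries of one group lie clear of both libraries of the other, as their choice required. Mup20 has 2754 and 1725 counts with IgG against 13 and 19 with anti-m6A.

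The most abundant shared gene without a call was Spp1 (osteopontin), with 17968 ± 1790 CPM with IgG and 18751 ± 1356 with anti-m6A (SD, n = 2), a log2 change of 0.06. Id3, Hp, Actb and Myl9 came next, at 0.19, 0.06, 1.01 and 0.18. Their sign is not fixed: with library totals alone Spp1, Id3, Hp and Myl9 lay below 0. Actb, cytoplasmic beta-actin, had 10227 and 3596 counts with IgG against 35982 and 20722 with anti-m6A, and its edgeR adjusted p of 0.0789 fell to 0.0217 without Input library 1, 0.0216 without Input library 2 and 0.0234 without anti-m6A library 2. Of the 5 most abundant called genes, Sparc (osteonectin, 1.04) and Mdk (the growth factor midkine, 1.02) were higher, and Apoe (-0.84) and mitochondrial CYTB (-1.29) were lower. The ferritin subunit gene Fth1 was called at 0.43 with an edgeR adjusted p of 0.0347, which became 0.0724 without IgG library 1 and 0.101 without anti-m6A library 2. Calls were not rare at high levels: of the 67 shared genes above 1000 CPM in Input 38 were higher and 14 lower.

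The reference level in Input separated the 2 directions. The median Input level was 274 CPM for the higher genes, 75.4 CPM for the lower genes and 93.9 CPM for those not called. In IgG the higher genes had a median of 116 CPM and the lower genes 425 CPM, and in anti-m6A the medians were 459 and 55.8 CPM. IgG exceeded Input in 695 of 732 lower genes (94.9%) and in 154 of 452 higher genes (34.1%), while anti-m6A exceeded Input in 79.9% of the higher and 46.9% of the lower genes. Over all shared genes IgG exceeded Input in 71.3% and anti-m6A in 62.5%, and over those not called IgG did so in 70.6%. Both the shared class and the calls depend on the IgG level, so this contrast is a description and not a test. IgG, not only anti-m6A, differed from Input. In both Input libraries 39 lower genes were at 0, as were 2 of the higher genes.

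By Input level, the median log2 change of shared genes went from -4.01 in the 49 genes at 0 in Input to -1.17 between 30 and 100 CPM, -0.24 between 100 and 300 CPM and 0.63 between 300 and 1000 CPM. Between 300 and 1000 CPM, 170 of 364 shared genes were higher and 79 lower. Between 30 and 100 CPM, 69 of 484 were higher and 234 lower. Across all 1899 shared genes Spearman's rho between the change and the Input level was 0.42, a description over genes that share these libraries and, in IgG, a floor on the count.

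Transcript length also differed between the directions. Among shared transcripts of up to 800 bases 87 of 200 (43.5%) were higher and 24 (12%) lower, with a median log2 change of 0.53. Among those of 1200 to 1800 bases 62 of 326 were higher and 167 lower, with a median of -1.03. Within Input levels of 100 to 1000 CPM the shortest group had 65 higher and 12 lower of 131, and 43 and 11 of 91 once ribosomal proteins and oxidative phosphorylation subunits were left out. In the same range transcripts of over 5000 bases had 20 higher and 20 lower of 65. The median Input level within this range was 311 CPM in the shortest group and 181 CPM in the longest, so Input level and length cannot be told apart here. Spearman's rho of the log2 change with coding length was -0.28 over 1712 shared genes.

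Genes of the respiratory chain leaned towards the anti-m6A libraries relative to all shared genes. Of 64 shared oxidative phosphorylation subunits (nuclear genes of the respiratory complexes and ATP synthase) 31 were higher and 9 lower, and their median log2 change lay 1.11 above that of all shared genes. Ndufa13, of complex I, had 755 and 306 counts with IgG against 8675 and 7639 with anti-m6A, a log2 change of 2.92. Ndufa12 had 221 and 92 with IgG against 1978 and 1917 with anti-m6A, a change of 2.62. Ndufb8 was higher by 1.67, and Cox4i1 of cytochrome oxidase by 0.55, a call that was lost without IgG library 2 (edgeR adjusted p of 0.0742) or anti-m6A library 2 (0.137). The count of higher subunits was 19 without anti-m6A library 2, and that of lower subunits was 5 and 4 without anti-m6A library 1 or 2. Among all shared genes 23.8% were higher and 38.5% lower. The list's median Input level was 314 CPM, and its median log2 change was 0.67. Of all shared genes between 300 and 1000 CPM in Input, 46.7% were higher and 21.7% lower, with a median of 0.63. The part of the Input level in this lean was not tested. With library totals alone 21 subunits were higher and 15 lower, and with only shared genes in the fit 41 and 7. Another 13 subunit genes were at 0 in IgG, 11 of them with counts in both anti-m6A libraries.

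Of 88 cytosolic ribosomal protein genes 70 were shared, with 24 higher and 6 lower and a median 0.84 above all shared genes, of which 23.8% were higher and 38.5% lower. With library totals alone the list had 19 higher and 15 lower, and with only shared genes in the fit 35 and 3. Rps29 had 20 and 11 counts with IgG against 563 and 474 with anti-m6A, a log2 change of 3.98. Rps20 had 102 and 35 with IgG against 1873 and 1653 with anti-m6A, a change of 3.69. Rps14, among the most abundant of the list, had a log2 change of 0.15 and was not called. Without anti-m6A library 1 the list had 14 higher and 3 lower, without anti-m6A library 2 it had 13 and 2, and without IgG library 2 it had 18 and 3. Ribosomal proteins have many processed copies in the genome, so reads may be shared with pseudogenes. Mitochondrial ribosomal proteins had 8 higher and 4 lower of 25, from Mrps14 (4.76) to Mrpl37 (-2.76), and a median 0.82 above all shared genes; without anti-m6A library 1 the lower ones numbered 2.

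Members of other core machinery went both ways, as shared genes did as a whole. Of 17 shared proteasome subunits 4 were higher and 4 lower, against 23.8% higher and 38.5% lower of all shared genes. The catalytic-ring subunits Psmb4 (log2 change 5.38) and Psmb6 (2.84) and the base ATPase Psmc3 (4.88) were among the higher, and Psmb3 (0.91) was the other, whose call was lost without any 1 pull-down library (edgeR adjusted p from 0.0535 to 0.118). The lower ones were Psmd6 (-3.13), Psmd7 (-2.16) and Psma2 (-1.11), and the base ATPase Psmc1 (-2.79), named after their values were seen. Psmc3 had 95 and 11 counts with IgG against 3336 and 2507 with anti-m6A, and Psmb2, the most abundant member without a call, differed by 0.21. Without Input library 1 or 2 the lower subunits numbered 7, with library totals alone 9, and with only shared genes in the fit 8 subunits were higher.

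For the lists that follow, 23.8% of all shared genes were higher and 38.5% lower. The core spliceosome list had 8 higher and 6 lower of 19 shared genes. Lsm6, of the U6 snRNP ring, was at 2.45 and Snrpa, of the U1 snRNP, at -2.40. The spliceosome list's median log2 change lay 0.97 above that of all shared genes, and from 0.91 to 1.09 above it with 1 library left out. With library totals alone 4 were higher and 7 lower, and with only shared genes in the fit 10 and 3. Of 5 shared SR splicing factors 2 were higher, Srsf5 (3.78) and Srsf3 (2.14). Translation factors had 6 higher and 7 lower of 20, with the cap-binding protein gene Eif4e2 at 4.24 and Eif3m at -3.65, and with library totals alone 5 were higher and 11 lower. Among hnRNP genes, Hnrnpab had 5336 and 3253 counts with IgG against 1275 and 875 with anti-m6A, a log2 change of -3.10.

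**Figure D3:**
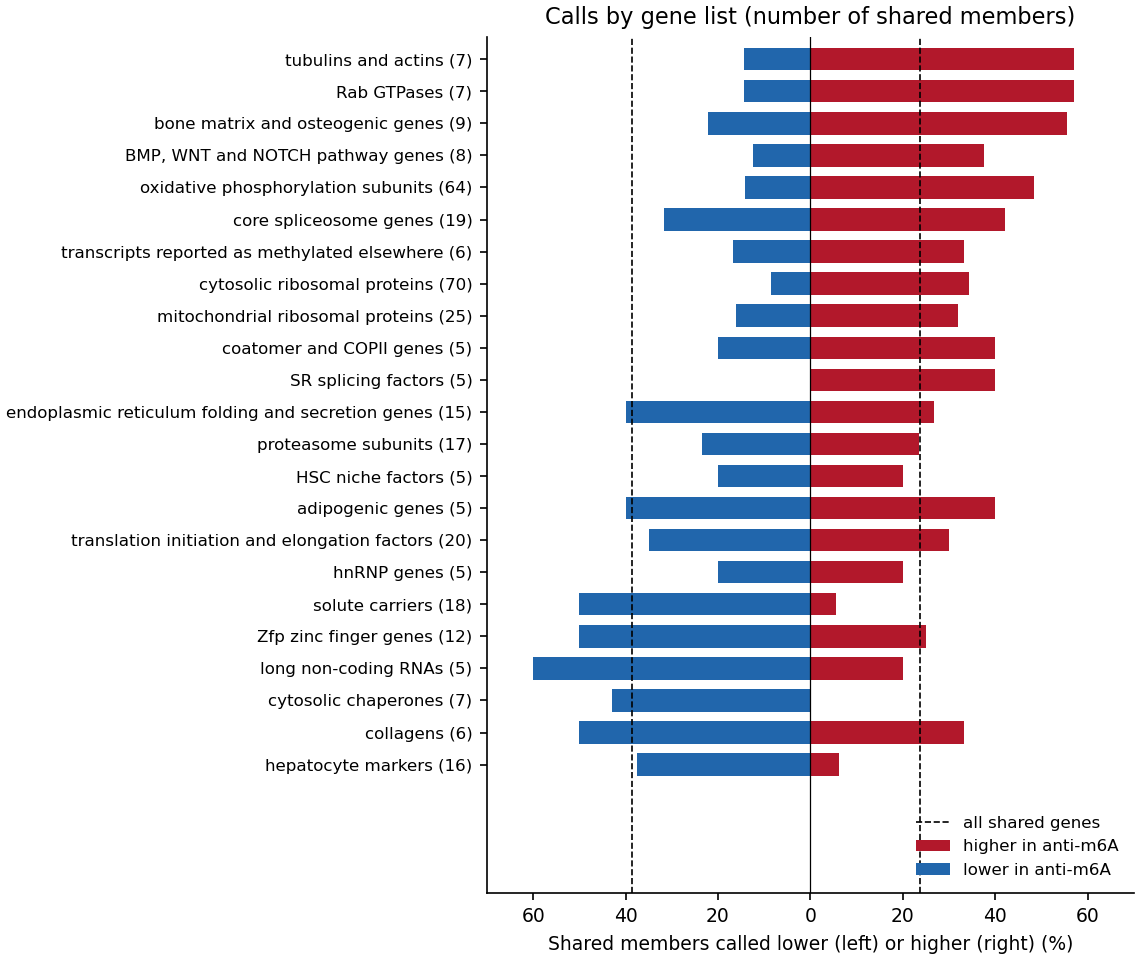
For each gene list with at least 5 shared genes (number in brackets), bars give the percentage of its shared genes called lower (blue, to the left) and higher (red, to the right) in anti-m6A, ordered by median log2 change; dashed lines mark the 38.5% lower and 23.8% higher of all shared genes. Oxidative phosphorylation and cytosolic ribosomal protein genes extend right, with 31 and 24 higher genes, and hepatocyte markers lie at the bottom.

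Genes of the stroma went both ways. All 4 shared genes of the stromal identity list were called higher, with a median 3.26 above all shared genes, and 3 were without either anti-m6A library, Snai2 being the one lost. Lepr, the leptin receptor that marks Cxcl12-rich stroma, had 40 and 17 counts with IgG against 746 and 589 with anti-m6A, a log2 change of 3.50 with SE 0.28 and an edgeR adjusted p of 0.000609. Pdgfrb, a growth factor receptor, had 79 and 13 with IgG against 2173 and 1948 with anti-m6A, a change of 4.56. Ebf3, a transcription factor of these cells, had 110 and 40 with IgG against 738 and 589 with anti-m6A, a change of 2.13, and the fourth, Snai2, was at 1.42. In Lepr, Pdgfrb and Ebf3 the counts of the IgG and anti-m6A libraries were far apart, and in all 4 genes the mean Input level was above that of both pull-downs, for example 282 CPM for Lepr against 13.2 in IgG and 152 in anti-m6A. Other genes that stromal cells express were called lower, among them Cxcl12, Col1a1 and Lum, described below, and Cebpa, a transcription factor of adipogenesis, at -3.24.

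Bone matrix and osteogenic genes had 5 higher and 2 lower of 9, a median 1.48 above all shared genes, and without either anti-m6A library 4 were higher and 1 lower. Bglap2 (osteocalcin) had 28 and 53 counts with IgG against 952 and 779 with anti-m6A, a log2 change of 3.14; its near-identical neighbour gene makes the assignment of its reads uncertain. Of 6 shared collagens 2 were higher and 3 lower, against 23.8% higher and 38.5% lower of all shared genes. The chains of type I collagen went opposite ways: Col1a2 had 80 and 33 counts with IgG against 3361 and 2941 with anti-m6A, a log2 change of 4.77, whereas Col1a1 had 3814 and 2186 with IgG against 1977 and 1706 with anti-m6A, a change of -1.78. Both calls held in every alternative. Input held 2157 CPM of Col1a2 and 1062 CPM of Col1a1, so that the IgG level was below Input for Col1a2 and above it for Col1a1, at 26.2 and 1446 CPM. The proteoglycan gene Dcn was higher at 2.60 and Lum lower at -0.84, a call lost without IgG library 2 (edgeR adjusted p of 0.0597), anti-m6A library 1 (0.191) or anti-m6A library 2 (0.235).

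Further gene pairs of like function differed in the same way. Actg1, the cytoplasmic gamma-actin, had 208 and 111 counts with IgG against 98 and 61 with anti-m6A, a log2 change of -2.09, against 1.01 for Actb; without anti-m6A library 2 its edgeR adjusted p was 0.0546. Among mitochondrial carriers, the adenine nucleotide translocase Slc25a5 had 385 and 118 counts with IgG against 5387 and 4007 with anti-m6A, a change of 3.23. Its relative Slc25a4 changed by -0.79 and the phosphate carrier Slc25a3 by -3.18. Of all 18 shared solute carriers 1 was higher and 9 lower, 4 were lower without either anti-m6A library, and 2 were higher without IgG library 1. Actins and translocases have processed copies, so some of their reads may belong to these. These pairs were set side by side after their values were seen.

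Among niche and signalling genes, Cxcl12 had 7051 and 4153 counts with IgG, 9960 and 8477 with anti-m6A and 40835 and 45101 in Input. Its log2 change of -0.37 is above the median of shared genes, and its call (edgeR adjusted p of 0.0348) was lost without IgG library 1 (0.0868), IgG library 2 (0.0619), anti-m6A library 1 (0.184) or anti-m6A library 2 (0.169). Bmp4 was higher by 1.20, with 493 and 250 counts with IgG against 1998 and 1571 with anti-m6A; without anti-m6A library 1 its edgeR adjusted p was 0.0512. Tcf7l2, a transcription factor of WNT signalling, was higher by 2.14, and Fzd7, a WNT receptor, had a log2 change of -3.74. Of the 8 shared BMP, WNT and NOTCH pathway genes 3 were higher and 1 lower, and without anti-m6A library 1 the higher ones numbered 1.

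Of 17 transcripts known from other cells to carry m6A, 6 were shared. Of these 2 were higher and 1 lower, against 23.8% higher and 38.5% lower of all shared genes. With the 4 pull-down libraries only, 3 were higher and 2 lower. Another 8 were at 0 in IgG, 7 of them in both anti-m6A libraries with bounds from 1.51 to 49.7. The other 3 were among the remaining genes, with 2 called higher, in a class where 52% of those tested were higher. Son, a nuclear speckle protein gene with a very long exon, had 1142 and 409 counts with IgG against 16232 and 13938 with anti-m6A, a log2 change of 3.28. The nuclear RNA Malat1 was higher by 0.82, and with library totals alone it was not called. Socs3, an inhibitor of cytokine signalling, had 312 and 93 counts with IgG against 67 and 45 with anti-m6A, a change of -2.84. Of the m6A machinery, the demethylase gene Fto had 2236 and 1069 counts with IgG against 139 and 96 with anti-m6A, a change of -4.87, while Input held 743 and 482. The writer subunit gene Wtap had 1784 and 29 counts in IgG, so that its change of 0.13 carries an SE of 1.72 and its groups overlap.

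Markers of hepatocytes, erythroid cells and neutrophils took larger shares of the IgG counts than of the anti-m6A counts. The 40 hepatocyte markers held 4.56% and 4.79% of IgG counts, 0.610% and 0.620% of anti-m6A counts and 0.465% and 0.839% of Input counts. Of 16 shared, 6 were lower and 1 higher, a share of lower calls near the 38.5% of all shared genes, and their median log2 change lay 3.97 below that of all shared genes. Apoa1, an apolipoprotein, had 19998 and 11700 counts with IgG against 1001 and 971 with anti-m6A, a log2 change of -5.08, but 195 and 3938 in the Input libraries; its edgeR adjusted p of 0.0157 was 0.0521 without IgG library 1. Hpx (hemopexin) had 3624 and 1716 in IgG, 86 and 55 in anti-m6A and 0 in both Input libraries, a change of -6.31. Without Input library 1 or 2, 14 of the 16 were lower, and without IgG library 1, 4 were. A further 13 markers were among the remaining genes, 12 of them called lower and 1 higher. Of all remaining genes tested 18.7% were lower, and direction in that class depends largely on which group was low. The other 11 markers were at 0 in both IgG libraries, 7 of them with counts in both anti-m6A libraries.

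All 3 shared erythroid markers were lower, among them Hba-a2 (alpha-globin, -1.98) and Hbb-bs (beta-globin, -1.63), with 0.376% and 0.426% of IgG counts on the list against 0.0824% and 0.0937% in anti-m6A. Hbb-bs was no longer called without IgG library 1 (edgeR adjusted p of 0.0655) or IgG library 2 (0.0610), and alpha-globin is encoded by near-identical copies. The shared neutrophil genes S100a9 (-3.95) and Camp (-2.45) were both lower, as were the 2 markers among the remaining genes. The list of 15 held 0.319% and 0.254% of IgG counts and 0.0144% and 0.0155% of anti-m6A counts. Its other 11 genes were at 0 in both IgG libraries, and 9 of them were also at 0 in anti-m6A. The other 2 went the opposite way, with counts in both anti-m6A libraries and bounds of 14.53 and 30.03. The part of these markers in the lower genes was not tested.

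Of the 23803 genes at 0 in both IgG libraries, 9111 were detected in both anti-m6A libraries, 876 in 1 of them and 13816 in neither, and 12754 of the last were at 0 in all 6 libraries. The genes at 0 in IgG took 35.7% and 35.3% of the anti-m6A counts and 42.5% and 42.0% of the Input counts. They were chosen by the value compared, so what follows is a description with no test. The bound divides the mean anti-m6A CPM by the mean CPM that 3 counts in each IgG library stand for, 1.55 CPM. It was at least 10 in 4326 genes, at least 100 in 634 and at least 1000 in 9, and its median over the 9987 genes with an anti-m6A count was 7.32. In 1202 genes detected in both anti-m6A libraries the bound was under 1, so the depth of IgG shows no difference there. The floor allows for counting error alone, because the labels name no molecular identifiers.

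**Figure D4:**
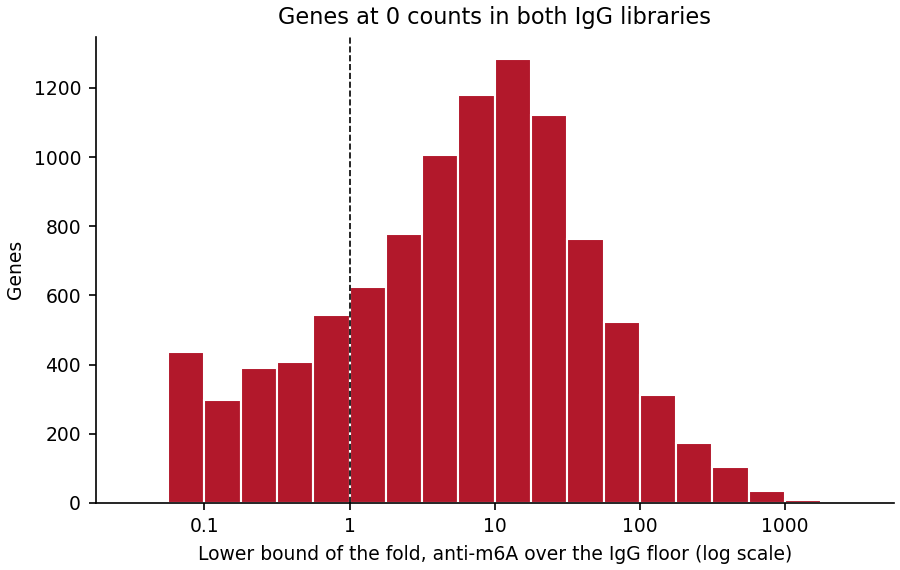
Histogram of the lower bound of the fold (log scale) for the 9987 genes at 0 in both IgG libraries with a count in at least 1 anti-m6A library; bars count genes and the dashed line marks a bound of 1. The bulk lies between 1 and 100, and 634 genes reach 100 or more.

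Being at 0 in IgG is not the same as being rare. Of the 7189 such genes with 10 or more counts in both anti-m6A libraries, the median Input level was 22.0 CPM and 1211 were at 0 in both Input libraries. Between 300 and 1000 CPM in Input, 113 of 510 genes (22.2%) were at 0 in both IgG libraries while all 510 were in both anti-m6A libraries, where those 113 had a median of 539 CPM. Between 30 and 100 CPM, 18.7% of 3122 genes were in both IgG libraries and 96.6% in both anti-m6A libraries. Detection largely coincided between the IgG libraries: 2613 genes were in both, 653 in IgG library 1 alone (334 of them with 1 count) and 110 in IgG library 2 alone, so that 96.0% of the genes of the shallower library were also in the deeper one. Since the labels do not describe separate IgG pull-downs, 2 libraries at 0 are not shown to be 2 independent observations. In the same range of Input, genes at 0 in IgG had longer transcripts, with medians of 3055 against 2710 bases between 30 and 100 CPM and 1764 against 1612 between 300 and 1000 CPM.

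**Figure D5:**
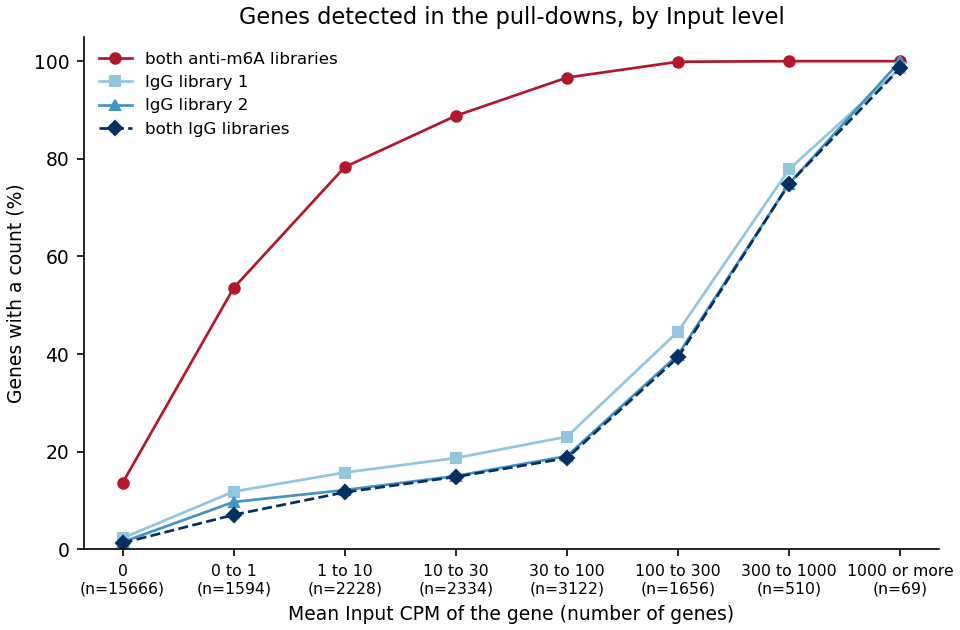
Percentage of genes with a count in both anti-m6A libraries (red) and in IgG library 1, IgG library 2 and both IgG libraries (blue lines), by mean Input CPM, with the number of genes in each class on the x axis. The curves of the IgG libraries nearly coincide and stay under 25% up to 100 CPM, where anti-m6A is at 96.6%.

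Of 32 chromatin regulators 28 were at 0 in both IgG libraries, and 27 of these were detected in both anti-m6A libraries. The share at 0 in IgG was 87.6% in the whole table, which includes 12754 genes without a count in any library. It was 76.5% among genes between 30 and 100 CPM in Input, where the list's median of 42.1 CPM lay. Kmt2e, a trithorax-family protein, had 780 and 635 counts with anti-m6A, at least 104-fold over the floor. Smarcb1, a subunit of SWI/SNF remodellers, had 756 and 606, at least 99.7-fold. Of 11 m6A reader genes 10 were at 0 in IgG, all with counts in both anti-m6A libraries; Ythdc1, the nuclear reader, had 1531 and 1254 counts, at least 204-fold over the floor. All 17 genes of the KLF transcription factor family were at 0 in IgG, 14 of them in both anti-m6A libraries, and Klf13 led with 2022 and 1097 counts (at least 224-fold), followed by Klf3 with 1293 and 1285 (at least 191-fold). Klf2 had 165 and 149 counts with anti-m6A, at least 23.1-fold over the floor, and 25 and 5 in Input. Among writers, Zc3h13 had 494 and 382 counts (at least 64.0-fold) and Mettl3 55 and 23 (at least 5.54-fold).

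Of the 18 stromal identity genes 12 were at 0 in IgG, and of 44 collagens 33, both smaller shares than the 87.6% of the whole table. Beside genes of like Input level the stromal share was instead the larger. The stromal list's median was 102.9 CPM, and 54.8% of genes between 100 and 300 CPM were at 0 in IgG. The collagen share stayed smaller: the list's median was 12.95 CPM, and 81.1% of genes between 10 and 30 CPM were at 0. All 12 stromal identity genes of this class were in both anti-m6A libraries, with bounds from 6.94 to 139. Prrx1, a mesenchymal homeobox factor, had 1002 and 886 counts with anti-m6A and the highest of these bounds. Of the 33 collagens 19 were in both anti-m6A libraries. Col4a2, a basement membrane collagen, had 3250 and 2646 counts with anti-m6A, at least 432-fold over the floor, and Col6a2 had 1427 and 1276, at least 199-fold. The adipocyte regulator Cebpd had 2709 and 2472 counts (at least 382-fold), and Jun, of the immediate early genes, had 400 and 283 (at least 49.7-fold). Input held 2220 and 1654 counts of Jun.

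Genes of core cellular machinery were present in this class as well. Of 47 mitochondrial ribosomal protein genes at 0 in IgG all 47 were in both anti-m6A libraries, with a median bound of 77.7. Such detection was usual at their Input level: between 100 and 300 CPM, 99.9% of all genes were in both anti-m6A libraries. The median Input level was 119 CPM for the mitochondrial ribosomal list and 166 CPM for the proteasome list. Mrps34 had 4555 and 4460 counts with anti-m6A, at least 666-fold over the floor. Of 29 proteasome genes 28 were in both, led by Psmb10, an immunoproteasome subunit, with 3164 and 3283 counts (at least 478-fold). Eif5, a translation initiation factor, had 5287 and 5035 counts (at least 762-fold), and Rab24, a small GTPase, had 3045 and 2686 (at least 422-fold). Lsm10, a component of the snRNP that processes histone mRNA, had 3238 and 3100 (at least 468-fold). These complexes therefore had members in each class, lower in anti-m6A, higher, and without any IgG count.

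A few transcripts of high Input were missing from both pull-downs. Scube1 had 1327 and 849 counts in Input and Ibtk 712 and 705, and both had 0 in all 4 pull-down libraries. Dpp8, a dipeptidyl peptidase, had 935 and 827 in Input, 0 in IgG and 1 and 2 in anti-m6A, and Prmt9 and Nek1 were alike with at most 2 counts in an anti-m6A library. For these genes no fold is given, since both pull-down groups were at or under the floor of 3 counts.

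Of the 1477 remaining genes 1102 were tested, and 573 were higher (52% of those tested) and 206 lower (18.7%) by edgeR's quasi-likelihood test. The class was chosen by low counts in the libraries compared, and 763 of its genes had counts in 1 IgG library only. The direction of a call thus depends largely on which group was low, and these counts only describe the class. Many sat next to the genes at 0 in IgG. Rbm8a, a core subunit of the exon junction complex, had 1 and 0 counts with IgG against 6639 and 6356 with anti-m6A. Cebpb, a transcription factor of adipogenesis, had 1 and 0 with IgG against 4810 and 3628 with anti-m6A, and Fabp4, a fatty acid-binding protein of adipocytes, had 1 and 0 against 3884 and 3612. With 1 IgG count these genes differ from those at 0 by a single read. At the other end 320 of the remaining genes were at 0 in both anti-m6A libraries. Of these, 82 had 10 or more counts in both IgG libraries, with a median of 96.6 CPM, and 55 of the 82 were also at 0 in both Input libraries.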

How the data were processed

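Poly(A) RNA of the sorted cells was split into Input, saved before the pull-down, and RNA eluted from antibody-coated beads with free modified nucleotide, and both were sequenced by Smart-seq2, per the labels' protocols. The authors deposited raw counts per gene for 6 libraries. Build mm10 and the tools featureCounts, Picard and edgeR 3.38.1 are listed in the submitters' processing notes; neither aligner nor annotation is named there. Smart-seq2 does not mark strand, so a read of an overlap between genes cannot be assigned to 1 of them by strand. Of 27179 gene numbers, 25275 matched a symbol in RefSeq's GRCm38.p6 table, and 1904 did not (0.722% to 1.38% of a library's counts).

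Genes were kept by filterByExpr (minimum count 10, minimum total 15), which left 11281. All 6 libraries entered 1 quasi-likelihood fit of edgeR 4.0.16 (R 4.3.3) with TMM scaling, 3 group means and 3 residual degrees of freedom, and Benjamini-Hochberg adjustment ran over all genes tested. CPM values use TMM-adjusted library sizes and percentages of counts use deposited totals. The floor of 3 counts stood for 1.16 and 1.94 CPM with IgG against 0.622 and 0.756 with anti-m6A. Alternatives were DESeq2 1.42.0, other scalings, count minimums, a replicate block and leaving out each library. Sequences and lengths are of 1 GENCODE M21 transcript per gene.

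The genes named are the 10 shared genes with the largest increase and the 10 with the largest decrease among those called without overlap, the 5 most abundant called and not called, the leading members of each gene list and of the other 2 classes by fixed ranks, and Cxcl12, Mettl3, Fto and Klf2; exceptions are stated, and 1 gene that the rule takes is not reported here. The members, gene lists and rules were chosen with earlier results of these data known. Unbound fractions were not analysed here.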

Additional observations from a re-analysis of the deposited data

How the results depend on the processing

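Of the shared genes, 284 to 544 were higher and 526 to 900 lower when 1 library at a time was left out, with 284 and 296 higher without an anti-m6A library. With 50 or more counts required in all 4 libraries 300 shared genes were higher and 607 lower. With only shared genes in the fit, 588 genes were higher, fewer than in the whole table by construction. The median log2 change of shared genes was -0.96 with library totals alone and -0.10 with only shared genes in the fit. Library totals alone turned the direction of Fth1 (-0.10), Spp1 (-0.47), Id3 (-0.33), Hp (-0.46), Myl9 (-0.34), Wtap (-0.28), Psmb2 (-0.31) and Rps14 (-0.37), and only shared genes in the fit that of Hnrnpa2b1 (0.00508). With 1 library left out, Spp1 ranged from -0.0183 (without IgG library 1) to 0.15, with -0.0114 without anti-m6A library 1. Wtap ranged from -1.26 (without anti-m6A library 1) to 4.38 (without IgG library 1), with -0.85 without IgG library 2. The cause was not tested. Over the whole table, 6572 to 9125 genes were higher and 659 to 1140 lower with 1 library left out. The number of genes at 0 in IgG with a bound of at least 10 was 3480 to 5860 over all alternatives. IgG depth limits what a 0 can show: 3 counts are 1.16 and 1.94 CPM there.

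With the replicate number as a block 420 shared genes were higher and 700 lower, and 7817 and 877 in the whole table. The deviations of equally numbered IgG and anti-m6A libraries correlated at 0.38 over 1899 shared genes; with 2 libraries a group this does not establish that the numbers pair the samples. Among the genes named, the edgeR adjusted p under the block was 0.0855 for Cxcl12, 0.0527 for Cox4i1 and 0.00666 for Actb.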

Other observations

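A set of genes differed between replicate numbers in the same direction in all 3 groups. Of 1757 genes with 10 or more counts in all 6 libraries, 18 had at least a 2-fold higher CPM in replicate 1 than in replicate 2 in Input, IgG and anti-m6A alike, and 0 had the reverse. Wtap, the writer-complex adaptor, had 4279 and 628 counts in Input, 1784 and 29 in IgG and 3020 and 587 in anti-m6A. Notch2 had 4801 and 824 in Input, 661 and 22 in IgG and 5026 and 1067 in anti-m6A. Nfia, a transcription factor, had 4316 and 635, 923 and 62, and 4319 and 800. Jag1, a NOTCH ligand, had 2805 and 908, 2355 and 82, and 1872 and 442. The log2 ratios of replicate 1 to replicate 2 correlated across the 1757 genes at 0.21 between Input and IgG, 0.22 between Input and anti-m6A and 0.40 between IgG and anti-m6A. The cause of this was not tested.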
